A study of Sus scrofa with 12 samples.

Results

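The transcriptomes of the 2 control groups of porcine (Sus scrofa) embryos were compared: the 3 libraries titled con-4c against the 3 libraries titled con-2c, 6 of the 12 libraries of the series. The 6 libraries were chosen by their titles alone. All embryos came from in vitro fertilization, and SMART-seq, a full-length cDNA method for small amounts of RNA that starts from poly(A) tails and amplifies the product, was applied to sets of several pooled embryos. The remaining 6 libraries, si-2c and si-4c, came from embryos injected with si-CCNB2, a short interfering RNA against the cyclin B2 mRNA. They are used here for the low-count filter, the scaling, the estimate of spread and for 1 test of the difference between both treatments.

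The control embryos are labelled as a blank control, whereas the methods call them normal embryos and also the negative control group of Si-CCNB2, so whether they had been injected is not clear. No allele, strain or age distinguishes con-2c from con-4c, and the title is the only label besides the tissue that separates them. The tissue label names the opposite stage: libraries titled con-2c carry a 4-cell tissue label and libraries titled con-4c a 2-cell tissue label. The titles are followed throughout, and with the tissue label every difference between the stages would change its sign. A library is a pool of whole embryos, so fewer cells of a type and less RNA per cell cannot be told apart, and the labels do not say whether the 3 sets of a group came from separate fertilizations. The p-values therefore measure the spread between these sets only.

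Early cleavage embryos run on RNA and protein stored in the oocyte, and the store is cleared while the embryo begins to transcribe its own genome, a passage called the maternal-to-zygotic transition. Clearance shortens the poly(A) tails of maternal mRNA through the CCR4-NOT deadenylase and its adaptor BTG4, while zygotic genome activation (ZGA) brings in mRNA for the transcription, RNA processing and translation machinery. In the pig the major wave of activation is placed at the 4-cell stage. An oligo(dT)-primed library sees both processes, and also sees changes in poly(A) tail length, as a change in counts.

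The 3 con-2c libraries held 33833611 to 39510908 counts and the 3 con-4c libraries 27785233 to 28771777. All levels below are CPM (each count divided by the library total, corrected for composition by TMM scaling), given per library or as mean ± SD (n = 3), and are compared between stages for 1 gene at a time because transcript lengths were not at hand. A gene is called where its edgeR adjusted p is below 0.05 and its log2 fold change is at least 1 in either direction, and "higher" and "lower" always refer to con-4c relative to con-2c. The defining markers of the oocyte and early embryo were present in both groups, 12 of 14 listed genes being in the table and all 12 tested. Their levels summed to between 22149 and 27077 CPM per con-2c library, against 12151 to 12762 CPM per con-4c library. BTG4 made up most of both sums, with means of 18571 (con-2c) and 7682 CPM (con-4c). Only 3 of the 12, OOEP, ZP4 and BTG4, were called lower and 0 higher, so the fall of the sum does not describe the markers in general. Markers of white blood cells summed to at most 8.42 CPM and those of red blood cells to at most 1.39 CPM in any control library, with TYROBP and CD8A at 0 in all 6. Sperm markers summed to 8.02 to 10.4 CPM in con-2c and 12.1 to 14.6 CPM in con-4c, most of it ODF2, which is not restricted to sperm and was not called. Of 4 sperm markers tested, AKAP3 and AKAP4, proteins of the sperm tail sheath, were called higher, from 0 counts in every con-2c library to con-4c means of 0.550 and 0.349 CPM. The con-4c libraries had 0.428, 1.06 and 0.163 CPM of AKAP3 and 0.428, 0 and 0.618 CPM of AKAP4. For AKAP4 the groups thus overlapped, and both genes rest on few counts. The acrosomal gene ACR was at 0 in all 6 libraries, and the part of sperm RNA in the results was not tested.

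The model tested 17995 genes. In con-4c 2598 of them (14.4%) were higher and 584 (3.25%) were lower, and these shares are the background against which every group of genes below is read. Calls in the higher direction thus made up 81.6%. Scaling by library totals in place of TMM moved the median log2 fold change of all tested genes from 0.11 to 0.38, called 3218 genes higher and 228 lower, and made 93.4% of the calls higher. The called genes differed in size between the directions. The median log2 fold change was 2.70 among genes called higher and -1.23 among genes called lower, with genes at 0 in every library of a group set to their bound (below). A log2 fold change of 4 or more was reached by 616 of the genes called higher, and -4 or less by 1 of the genes called lower.

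Gain involved many genes with few counts, and loss fewer genes with many counts. Both words are relative here, since CPM is a share of a library and the amount of mRNA per embryo was not analysed. The genes called higher took 0.804%, 0.823% and 0.907% of all counts in the con-2c libraries and 5.58%, 5.61% and 5.61% in the con-4c libraries. The genes called lower took 19.1%, 19.4% and 17.3% in con-2c and 9.02%, 9.60% and 9.43% in con-4c. These genes were chosen by the same libraries, so the shares describe the calls and do not test them. The libraries of both groups did not overlap in either share.

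The split differed between expression levels. Among 6340 genes with a mean under 1 CPM over the 6 control libraries, 17.1% were called higher and 1.09% lower. From 1 to 10 CPM, among 5535 genes, the share called higher was no smaller, at 18.8%, and 3.90% were called lower. Among 116 genes over 1000 CPM, 2.59% were called higher and 13.8% lower, and the median log2 fold change was -0.35. From 100 to 1000 CPM the shares were 3.53% and 5.84%, and from 10 to 100 CPM they were 9.18% and 4.35%. Low counts limit this comparison, since the fold of a gene under 1 CPM rests on few counts per library. Of the 3182 genes called, 3059 had libraries without overlap between the groups, against 48.6% of all tested genes.

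**Figure D1:**
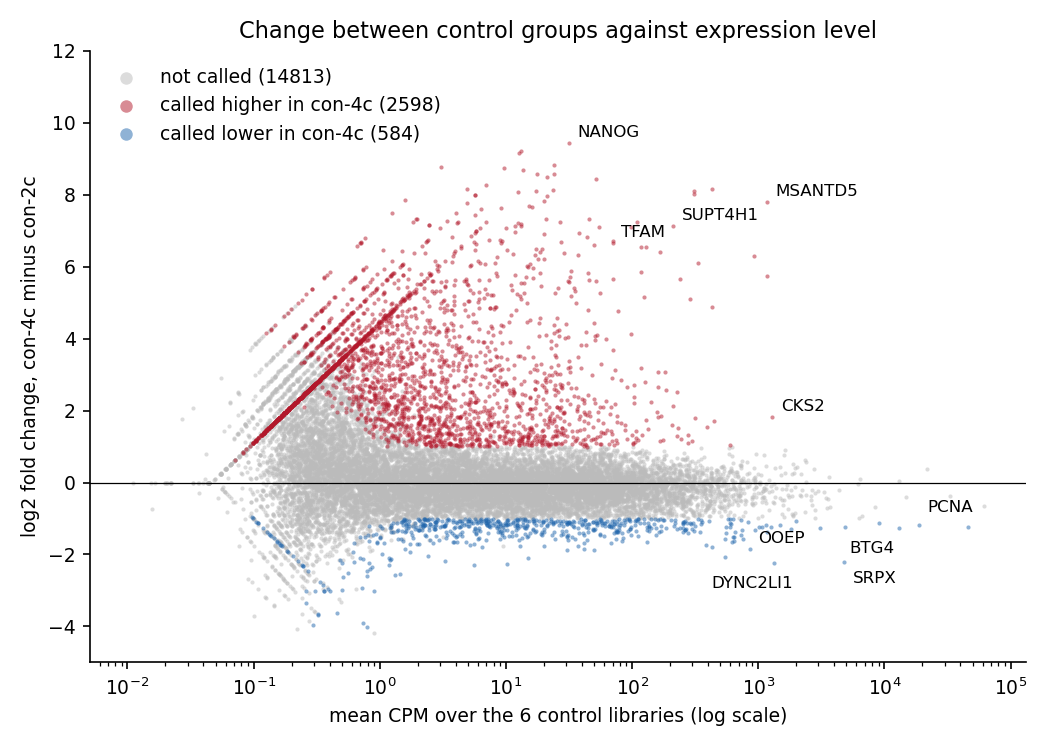
Log2 fold change of con-4c over con-2c (vertical axis) against the mean CPM over the 6 control libraries (horizontal axis, log scale) for 17995 tested genes, 1 point per gene; genes at 0 in every library of a group are drawn at their bound from a floor of 3 counts, which gives the slanted lines at low CPM. The 2598 genes called higher (red) spread over low and middle levels and reach log2 fold changes above 8, and the 584 genes called lower (blue) extend to the most abundant transcripts with small fold changes.

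**Figure D2:**
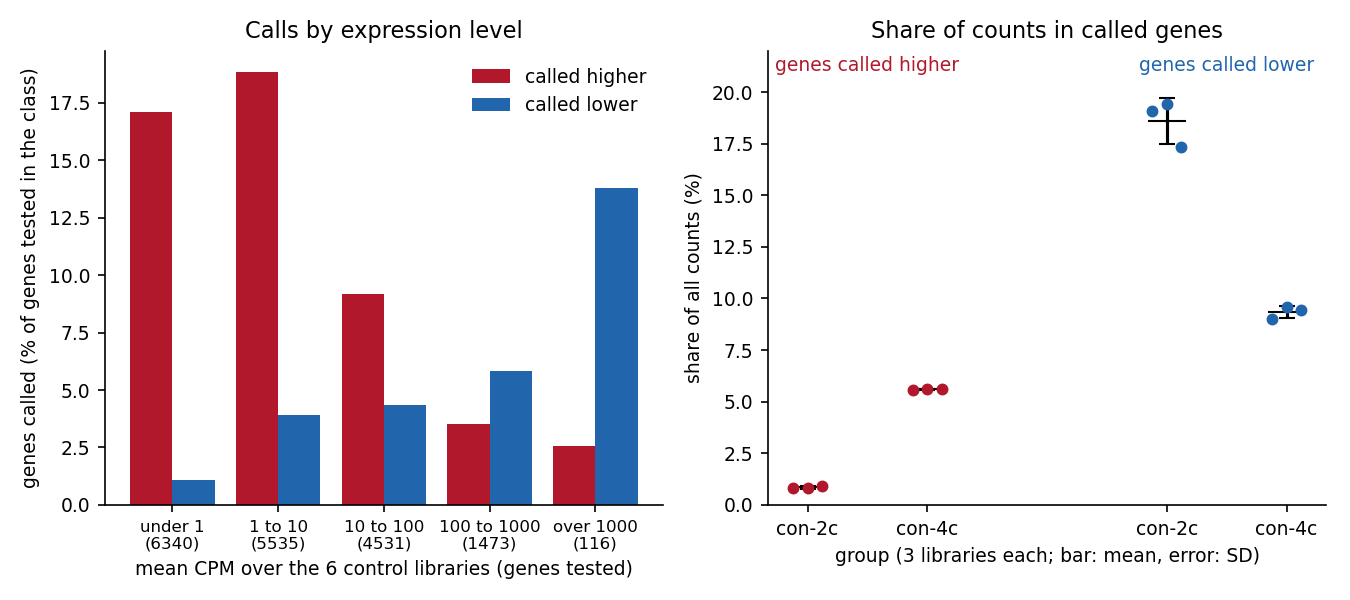
Left, the share of tested genes called higher (red) or lower (blue) in classes of mean CPM over the 6 control libraries, with the number of genes tested in brackets. Right, the share of all counts (%) in genes called higher and in genes called lower for each control library (points), with mean and SD of 3 libraries: the former grow from 0.845% to 5.60% and the latter shrink from 18.6% to 9.35%.

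More genes were seen at all in con-4c. At least 1 count was found for 18034, 18819 and 18429 genes in the con-2c libraries and for 21647, 21181 and 21601 genes in the con-4c libraries, although the latter were the shallower ones. After thinning every library to 27785233 counts the numbers were 17885, 18606 and 18330 in con-2c and 21647, 21167 and 21583 in con-4c. Of the tested genes, 999 had fewer than 3 counts in every con-2c library, 745 of which were called higher. The reverse was rare, since 93 genes had fewer than 3 counts in every con-4c library and 34 of them were called lower. A gene this low in a control group passed the low-count filter only through libraries of other groups. These numbers of calls are therefore in part fixed by the filter and do not test a gain or loss.

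Among the genes with a symbol that went from fewer than 3 counts per con-2c library to the highest CPM in con-4c were NANOG, ZNF622, ANXA1, PDXK and IFI30. All 5 had 0 counts in the 3 con-2c libraries, so a fold is a lower bound against a floor of 3 counts per library (0.0923 CPM as the mean of the con-2c libraries). NANOG, a homeobox factor of the pluripotent epiblast, had 60.1, 69.1 and 60.8 CPM in con-4c and was at least 686-fold higher. ZNF622, a zinc finger protein of late 60S ribosomal subunit maturation, had 29.6, 37.3 and 38.1 CPM and was at least 379-fold higher. ANXA1, a membrane-binding annexin, had 18.2, 20.8 and 15.8 CPM (at least 198-fold). All 3 were thus not detected at the depth of con-2c and had over 10 CPM in each con-4c library. PDXK, the kinase of vitamin B6, rose to 12.5 CPM (at least 135-fold) and IFI30, a lysosomal thiol reductase, to 10.6 CPM (at least 115-fold). The transcripts that went below 3 counts per con-4c library had never been abundant: AOC2, an amine oxidase, had 1.59, 1.25 and 1.91 CPM in con-2c and 0 counts in con-4c (at least 16-fold lower), and UCKL1, PTCRA, ZNF414 and CRACR2B were at 0.482 to 0.800 CPM in con-2c on average and at 0 in con-4c.

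Among genes called higher with at least 10 CPM and no overlap between libraries, the 12 with the smallest p were SLC31A1, MSANTD5, TFAM, EMG1, TMSB10, FAU, TDG, SPTY2D1, RACK1, NSD1, RSRP1 and EXOSC1, each at an edgeR adjusted p of 3.96e-13 or less. Their log2 fold changes lay between 2.80 and 7.79 with standard errors of 0.09 to 0.20. TDG, the thymine DNA glycosylase that removes oxidised methylcytosine, had 0.286, 0.327 and 0.43 CPM in the con-2c libraries against 53.5, 55.3 and 51.8 CPM in the con-4c libraries. RACK1, a scaffold protein bound to the small ribosomal subunit, had 0.955, 1.04 and 0.769 CPM in the con-2c libraries against 62.2, 82.2 and 76.2 CPM in the con-4c libraries. FAU, which encodes ribosomal protein S30 fused to a ubiquitin-like protein, had 1.53, 3.33 and 3.2 CPM in the con-2c libraries against 241, 266 and 255 CPM in the con-4c libraries. In each of these the lowest con-4c library stood far above the highest con-2c library. TMSB10, a thymosin that binds actin monomers, had 12.8, 18.8 and 17.7 CPM in the con-2c libraries against 582, 563 and 538 CPM in the con-4c libraries. NSD1, a methyltransferase for lysine 36 of histone H3, had 42.7, 39.6 and 34.6 CPM in the con-2c libraries against 316, 322 and 337 CPM in the con-4c libraries. EXOSC1, a cap subunit of the RNA exosome, had 34, 30.5 and 31 CPM in the con-2c libraries against 209.8, 226 and 229 CPM in the con-4c libraries. NSD1 and EXOSC1 were already present in con-2c, and rose by less than the genes that started near 0. SPTY2D1, a histone chaperone of transcribed chromatin, rose from 10.2 ± 1.35 to 131 ± 8.06 CPM, and RSRP1, a protein rich in arginine and serine, from 3.44 ± 0.552 to 55.6 ± 3.94 CPM.

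The largest gains in CPM, rather than in fold, belonged to MSANTD5, CKS2, SLC31A1, TMSB10, BCAS2 and SUPT4H1. MSANTD5, a protein with a Myb/SANT-like DNA-binding domain, had 10.6, 13.3 and 8.02 CPM in the con-2c libraries against 2165, 2522 and 2359.6 CPM in the con-4c libraries. CKS2, a small subunit of cyclin-dependent kinases, had 532, 619 and 571 CPM in the con-2c libraries against 1943, 2074 and 2021 CPM in the con-4c libraries. SUPT4H1, a subunit of the DSIF elongation complex, had 1.75, 4.72 and 2.55 CPM in the con-2c libraries against 420.5, 427 and 418 CPM in the con-4c libraries. CKS2 was thus an abundant transcript of con-2c that increased further (log2 fold change 1.81, SE 0.09), while SUPT4H1 started near 0 (log2 fold change 7.12, SE 0.23). BCAS2, a component of the PRP19 splicing complex, rose from 207 ± 16.1 to 678 ± 35.2 CPM. The copper importer SLC31A1 rose from 28.6 ± 4.01 to 834 ± 32.9 CPM.

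Loss was shown most clearly, by the same rule, by RGS2, OOEP, SRPX, MANBA, MOCS2, DYNC2LI1, HPF1, MRPL33, MRPS14, COX7A2L, NFE2L2 and DEPDC7, each at an edgeR adjusted p of 1.10e-09 or less, with log2 fold changes between -2.23 and -1.24 and standard errors of 0.07 to 0.12. DYNC2LI1, a light intermediate chain of the dynein of cilia, had 2389, 2365 and 1827 CPM in the con-2c libraries against 440.1, 486 and 473 CPM in the con-4c libraries. MOCS2, an enzyme of molybdenum cofactor synthesis, had 76.4, 88.5 and 72.7 CPM in the con-2c libraries against 20.1, 22 and 22.1 CPM in the con-4c libraries. HPF1, a partner of PARP1 in histone ADP-ribosylation, had 397, 399 and 407 CPM in the con-2c libraries against 141, 152 and 159 CPM in the con-4c libraries. The con-4c libraries of these genes lay within a narrow band below all con-2c libraries. COX7A2L, a factor of respiratory supercomplexes, had 219.6, 205 and 178 CPM in the con-2c libraries against 64.7, 62.5 and 62.6 CPM in the con-4c libraries. NFE2L2, the master transcription factor of the antioxidant response, had 103, 102 and 109.5 CPM in the con-2c libraries against 39.8, 41.1 and 37.2 CPM in the con-4c libraries. MRPL33, of the large mitochondrial ribosomal subunit, had 82.9, 86.8 and 74.7 CPM in the con-2c libraries against 29.3, 29.7 and 30.8 CPM in the con-4c libraries. All 3 kept about the same fraction of their con-2c level, between 31.5% and 37.6%. MRPS14 fell from 781 ± 36.3 to 331 ± 15.9 CPM and DEPDC7 from 421 ± 33.5 to 172 ± 6.66 CPM. SRPX, a secreted sushi-repeat protein, kept 21.6% of its con-2c level, OOEP 27.7%, RGS2, an inhibitor of G protein signalling, 29%, and the lysosomal enzyme MANBA 33.7%.

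The largest losses in CPM were those of PCNA, BTG4, SRPX, AKIRIN2, GRIP1 and DYNC2LI1. PCNA, the sliding clamp of DNA replication, had 29513, 27646 and 21057 CPM in the con-2c libraries against 10889, 12056 and 11612 CPM in the con-4c libraries. AKIRIN2, which brings proteasomes into the nucleus, had 7672, 6949 and 5770.4 CPM in the con-2c libraries against 2707, 3085 and 2926 CPM in the con-4c libraries. GRIP1, a PDZ scaffold protein, had 4673, 4399 and 4085 CPM in the con-2c libraries against 1815, 1872 and 1840.2 CPM in the con-4c libraries. The groups did not overlap, and what was left of the con-2c level was alike (44.2% for PCNA, 42.8% for AKIRIN2 and 42% for GRIP1). PCNA, BTG4 and SRPX together took 4.94%, 4.79% and 4.19% of all counts in con-2c and 2.15%, 2.31% and 2.27% in con-4c. Under library totals the log2 fold change was -0.90 for PCNA, -0.99 for BTG4, -0.95 for AKIRIN2, -0.98 for GRIP1 and -0.97 for MRPS14, past the adjusted p but not the fold threshold.

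**Figure D3:**
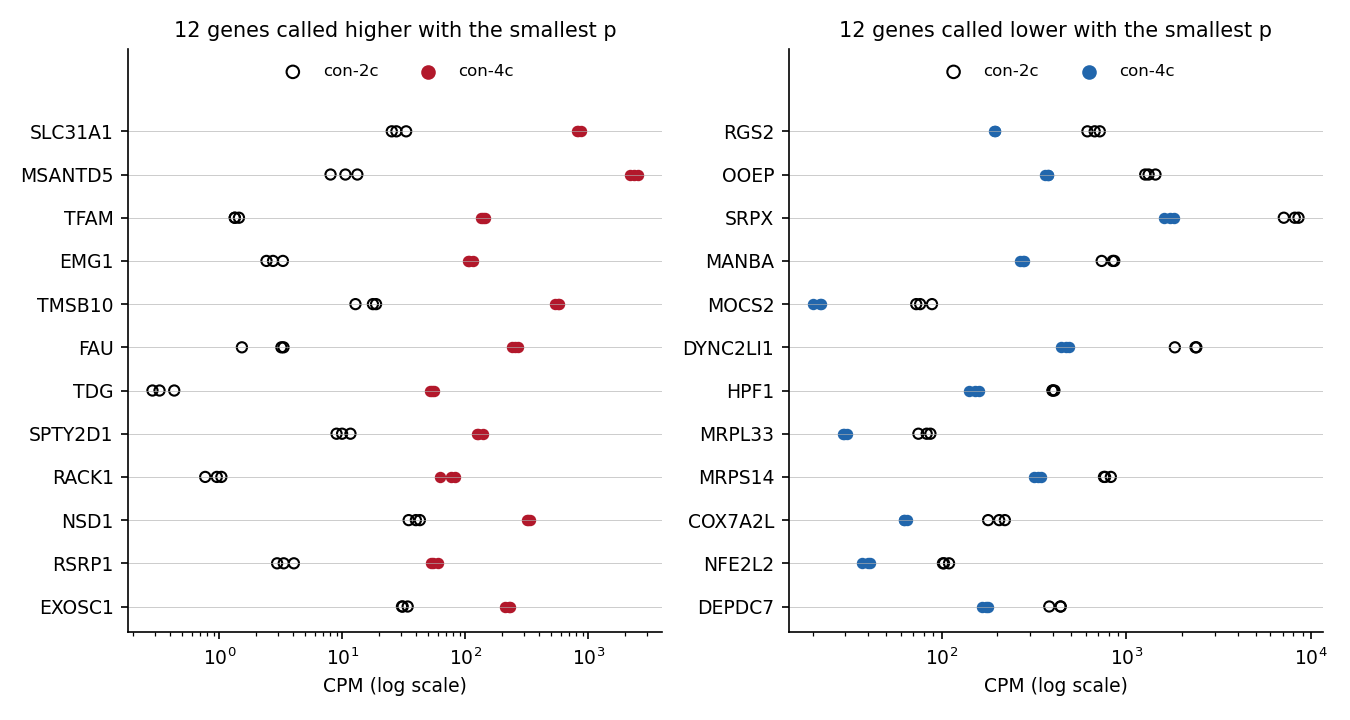
CPM (log scale) of the 12 genes called higher (left) and the 12 called lower (right) with the smallest p, for each of the 3 con-2c (open circles) and 3 con-4c libraries (filled circles). The groups do not overlap for any of the 24 genes, the gap spanning up to 2 orders of magnitude on the left and less than 1 on the right.

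CCNB2 itself, the target of the knockdown in the other libraries, had 464 ± 21.7 in con-2c against 475 ± 41.9 CPM in con-4c and was not called (log2 fold change 0.03, SE 0.12, edgeR adjusted p 0.879). Of the genes that the study took as ZGA markers (EIF1A, DPPA2 and ZSCAN4), ZSCAN4 was not analysed here. DPPA2, a chromatin factor of early embryos, had 37.6, 36.2 and 36.6 CPM in the con-2c libraries against 159, 184 and 171 CPM in the con-4c libraries. EIF1AX, a translation initiation factor taken here for the EIF1A of the study, had 35.2, 35.4 and 29 CPM in the con-2c libraries against 168, 182 and 172 CPM in the con-4c libraries. BTG4 had 20183, 20098 and 15431 CPM in the con-2c libraries against 7150.1, 7991 and 7904 CPM in the con-4c libraries. DPPA2 and EIF1AX rose and BTG4 fell, without overlap of libraries in any of the 3 genes.

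Pathways were followed with 50 gene lists, of which 49 had tested members; the genes encoded by mitochondrial DNA were not analysed here. A list is described by how many tested members were called and by its median log2 fold change, beside 14.4% higher, 3.25% lower and a median of 0.11 over all tested genes. List members all have a symbol, whereas 5844 of the tested genes have none. Of 12151 tested genes with a symbol, 1422 were called higher and 423 lower. Among those with a RefSeq position the shares were 11.7% and 3.41%, the closer background for a list. The share called higher was above 14.4% in 24 lists, and the share called lower above 3.25% in 25 lists. Under TMM scaling the median was below 0 in 19 lists, and 16 of these medians were above 0 with library totals, so a median near 0 carries no direction by itself. The median of all tested genes was 0.38 with library totals. The highest shares of members called higher were found in the cytosolic ribosomal proteins, early embryo transcription factors, mitochondrial DNA maintenance and import, translation factors and transcription elongation. The lists were chosen with earlier results of these data known, so this order describes the lists and does not test them.

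**Figure D4:**
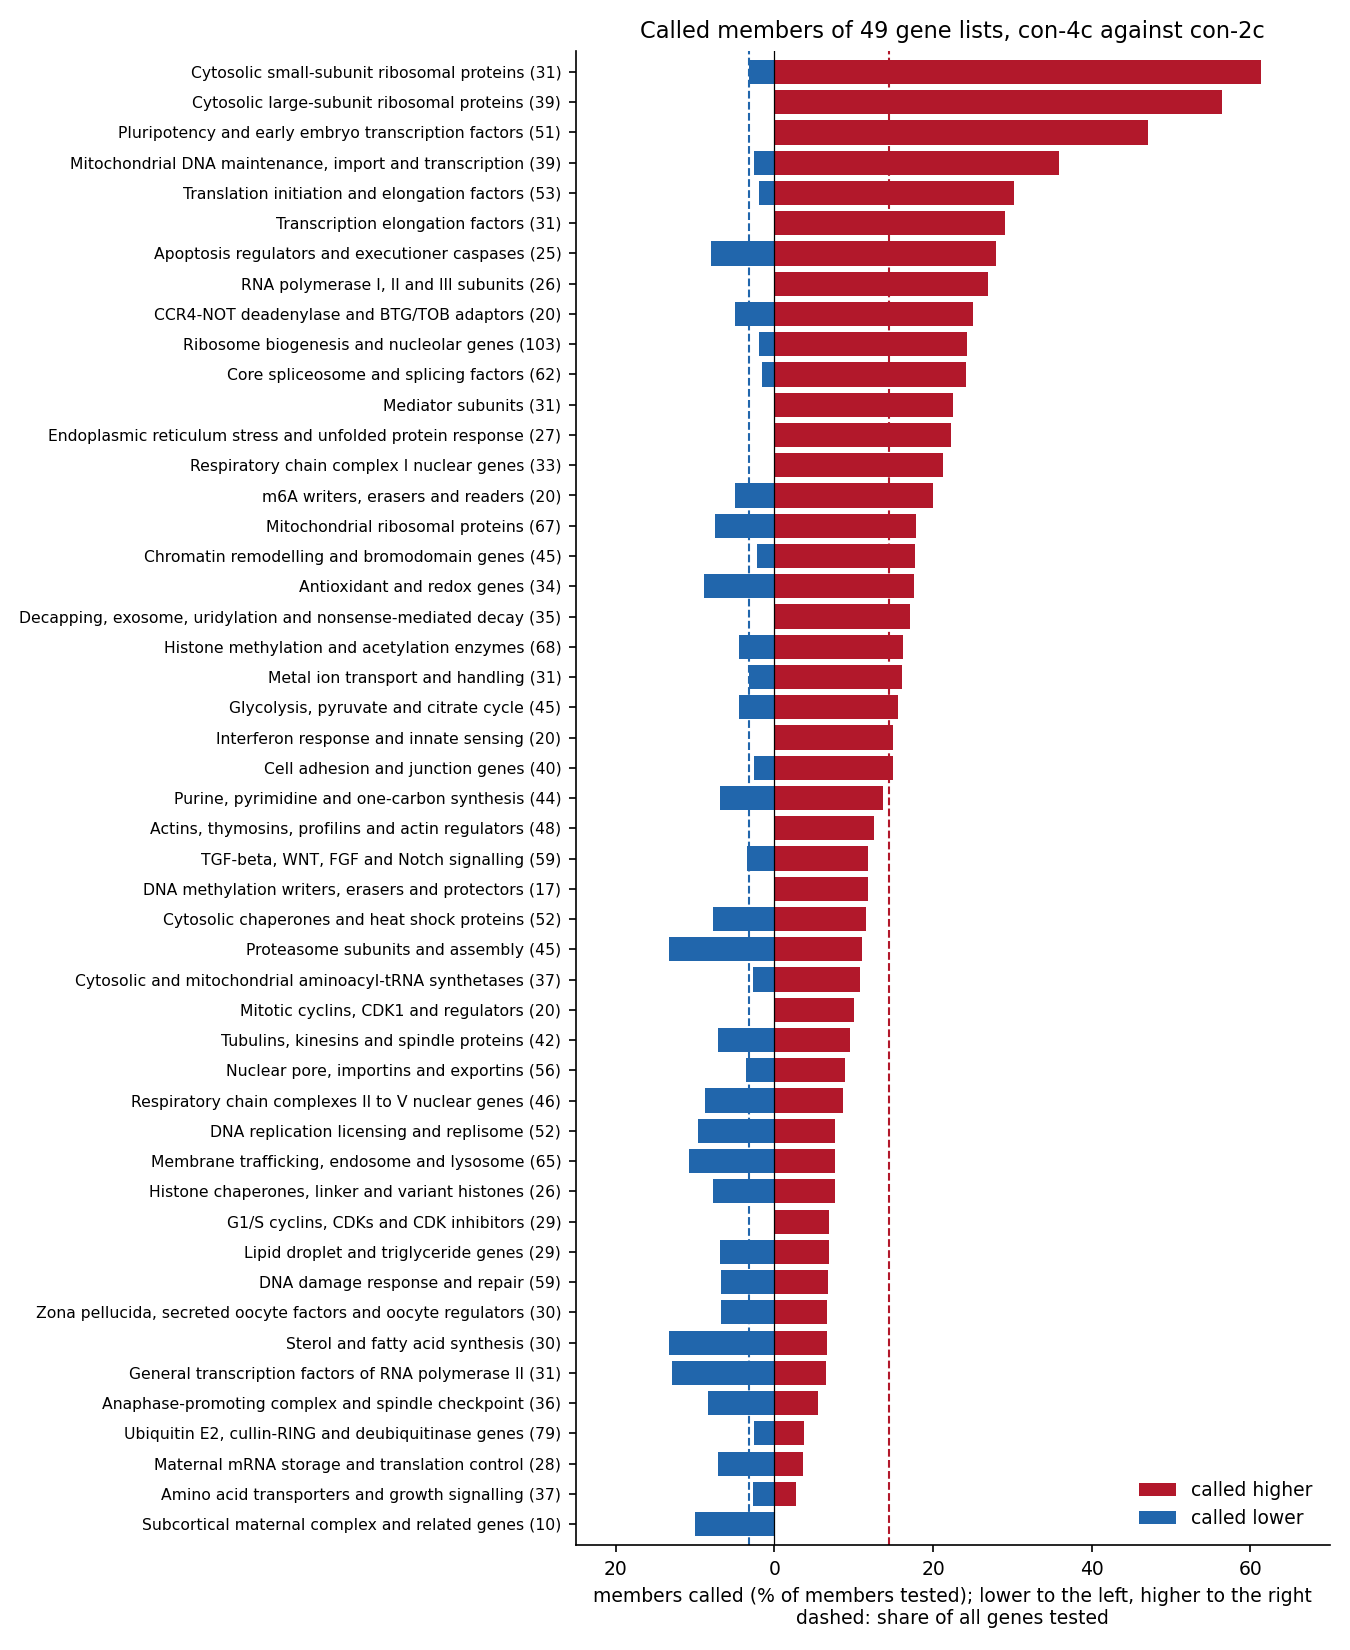
Share of tested members (number in brackets) called higher (red, to the right) and lower (blue, to the left) in 49 gene lists, ordered by the share called higher; dashed lines mark 14.4% and 3.25%, the shares among all 17995 genes tested. Ribosomal protein lists stand at the top with 61.3% and 56.4% called higher, and the subcortical maternal complex, with none called higher, stands at the bottom.

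The transcription factor list of the early embryo had 24 of 51 tested members called higher and 0 lower, with a median of 1.17. KLF17, a Krüppel-like factor of the preimplantation embryo, rose from 0.17 ± 0.164 to 39.9 ± 0.839 CPM. MYC, a growth-promoting factor, rose from 0.151 ± 0.132 to 10.2 ± 1.26 CPM, and its relative MYCN rose from 0 counts in every con-2c library to a con-4c mean of 8.87 CPM. Factors of later lineages were called at low levels. TFAP2C, a trophectoderm factor, rose from 0.347 ± 0.304 to 6.36 ± 1.22 CPM, NR5A2, a nuclear receptor of early embryos, from 0.122 ± 0.119 to 6.01 ± 0.732 CPM, SOX2 of the inner cell mass from 0.0307 ± 0.0533 to 1.64 ± 0.261 CPM and GATA3 of the trophectoderm from 0.274 ± 0.162 to 2.87 ± 0.503 CPM. KLF4 rose from 5.46 ± 0.916 to 34.2 ± 2.54 CPM and DPPA4, the partner of DPPA2, from 2.6 ± 0.517 to 7.68 ± 2.31 CPM. CDX2, SOX17, HAND1 and FGF4, also markers of blastocyst lineages, were under 0.5 CPM in every control library. Among general activators, the CCAAT-box subunit NFYA rose from 9.15 ± 0.242 to 45.1 ± 3.31 CPM, NRF1 from 2.03 ± 0.301 to 34.6 ± 2.67 CPM, SP1 from 3.33 ± 0.951 to 14.2 ± 2.54 CPM, YY1 from 4.81 ± 0.596 to 15.5 ± 2.8 CPM and GABPA from 68.4 ± 11 to 154 ± 10.1 CPM. The most abundant member, DPPA5, an RNA-binding protein of pluripotent cells and eggs, had 4594 ± 503 in con-2c against 2875 ± 155 CPM in con-4c and did not pass the fold threshold (log2 fold change -0.68). The summed level of the list, most of it DPPA5, went from 5899 ± 574 to 4565 ± 176 CPM although 24 members were called higher.

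The machinery of RNA polymerase II was not gained evenly. Polymerase subunits had 7 of 26 called higher and 0 lower (median 0.36). POLR2B, the second-largest subunit of polymerase II, rose from 6.05 ± 0.934 to 68.4 ± 2.88 CPM, and POLR2K, a small shared subunit, from 108 ± 12.7 to 245 ± 10.2 CPM. POLR2C, the subunit of highest CPM in these libraries, had 269 ± 29.5 in con-2c against 146 ± 4.18 CPM in con-4c and was not called (log2 fold change -0.88). Elongation factors had 9 of 31 called higher and 0 lower, with a median of 0.51. RTF1, a PAF-complex-associated factor, had 22.9, 23.4 and 23.6 CPM in the con-2c libraries against 210.1, 205 and 226 CPM in the con-4c libraries. ELOA, the active subunit of elongin, rose from 15 ± 2.24 to 131 ± 6.71 CPM, and HEXIM1, an inhibitor of the P-TEFb kinase, from 0.326 ± 0.0898 to 3.3 ± 0.558 CPM. Mediator, which links activators to polymerase II, had 7 of 31 called higher and 0 lower. MED31 had 4.2, 4.64 and 4.67 CPM in the con-2c libraries against 83.3, 81 and 81.2 CPM in the con-4c libraries, and MED10 rose from 7.5 ± 2.11 to 46.8 ± 3.92 CPM. MED4, its member of highest CPM, had 478 ± 16.2 in con-2c against 308 ± 3.1 CPM in con-4c and was not called.

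General initiation factors held more members lower than higher. In that list 2 of 31 members were called higher and 4 lower, with a median of 0.03. GTF2F1, a TFIIF subunit, rose from 2.69 ± 0.714 to 57.1 ± 6.06 CPM, and the gonadal TFIID subunit TAF4B from 13.2 ± 2.62 to 28.8 ± 1.85 CPM. GTF2B, the TFIIB factor that positions polymerase at the start site, fell from 218 ± 30.5 to 90.4 ± 10.4 CPM, and TAF9 from 416 ± 65.8 to 191 ± 21.6 CPM. The other TFIID subunits called lower were TAF13 (105 to 42.3 CPM) and TAF9B (66.7 to 31 CPM). The call of TAF4B was lost without con-2c library 2 (0.96), and those of TAF9 (-0.84), TAF9B (-0.82) and GTF2B (-0.99) under library totals.

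Among splicing factors 15 of 62 were called higher and 1 lower (median 0.26). The SR proteins, which bind exons and guide splice site choice, are described as a subgroup chosen after their values were seen. Of 10 tested, SRSF1, SRSF2, SRSF3, SRSF5, SRSF6, SRSF7 and SRSF11 were called higher, with log2 fold changes from 1.24 (SRSF3) to 3.06 (SRSF6), and SRSF4, SRSF9 and SRSF10 were not called. CLK1, the kinase that phosphorylates SR proteins, rose from 1.24 ± 0.335 to 47.6 ± 2.45 CPM, and the helicase DHX15, which takes spliceosomes apart, from 5.81 ± 0.798 to 99.9 ± 6.25 CPM. PRPF38A had 51.5, 51 and 46.4 CPM in the con-2c libraries against 216, 249 and 239 CPM in the con-4c libraries, and PRPF19 rose from 59.6 ± 1.11 to 197 ± 7.95 CPM. SNRPF, an Sm core protein, fell from 273 ± 13.8 to 134 ± 8.28 CPM, a call lost without con-2c library 2 (-0.999) or con-4c library 3 (-0.99), under library totals (-0.76) and with DESeq2 (-0.997). The summed level of the list was 0.923 times its con-2c value.

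The list of decapping, exosome, uridylation and nonsense-mediated decay had 6 of 35 called higher and 0 lower, with a median of 0.02. Of the 6 members called higher, 5 were exosome subunits: EXOSC1, EXOSC3, EXOSC4, EXOSC10 and DIS3. The subunits EXOSC2, EXOSC5, EXOSC6, EXOSC7, EXOSC8 and EXOSC9 were tested and not called, EXOSC9 at a log2 fold change of -0.75. EXOSC10, a catalytic subunit, rose from 4.47 ± 0.874 to 96.2 ± 3.99 CPM, and DIS3, the other catalytic subunit, from 36.7 ± 1.37 to 99.8 ± 4.43 CPM. The decay kinase SMG1 had 1476 ± 97.8 in con-2c against 1784 ± 44.4 CPM in con-4c and was not called. In the CCR4-NOT and BTG/TOB list 5 of 20 were called higher and 1 lower. BTG4 fell, whereas its relatives BTG3 (0.441 to 28.8 CPM), BTG1 (1.37 to 9.0 CPM) and BTG2 (2.4 to 6.18 CPM) and the related adaptor TOB2 (8.44 to 21.4 CPM) rose. CNOT9, a subunit that binds adaptors, rose from 4.2 ± 0.464 to 29.5 ± 3.39 CPM. The summed level of the list, most of it BTG4, went from 20424 ± 2798 to 9515 ± 498 CPM. Readers, writers and erasers of m6A, the methyl mark that marks many maternal mRNAs for decay, had 4 of 20 higher and 1 lower. The writer subunit METTL14 fell from 233 ± 35.2 to 90.5 ± 4.44 CPM, and the nuclear reader HNRNPA2B1 rose from 199.8 ± 8.22 to 580.3 ± 8.83 CPM. RBM15, which guides the writer, rose from 2.97 ± 0.223 to 11.3 ± 0.458 CPM.

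The highest shares of gain were those of the ribosomal proteins. In the small ribosomal subunit 19 of 31 proteins were called higher (median 1.92), and in the large subunit 22 of 39 (median 1.15). RPS19 rose from 0.533 ± 0.0405 to 39.5 ± 2.24 CPM, RPL23A from 1.24 ± 0.396 to 60.7 ± 4.87 CPM and RPL9 from 0.149 ± 0.257 to 20 ± 3.9 CPM. RPLP1 had 64.7, 62.3 and 72.9 CPM in the con-2c libraries against 139, 148 and 148 CPM in the con-4c libraries, and RPL32 rose from 48.4 ± 2.26 to 103 ± 7.98 CPM. Such genes have near-identical copies elsewhere in the genome, and how shared reads were counted is not stated, so single values are uncertain. Of the other members, 11 of the small and 17 of the large subunit were not called, and 1 was called lower. That member, the abundant RPS24, fell from 1496 ± 85.1 to 639 ± 16 CPM (log2 fold change -0.95 under library totals), and RPL26L1, a paralog of RPL26, had 361 ± 16.7 in con-2c against 184 ± 2.87 CPM in con-4c (log2 fold change -0.97, not called, but called at -1.01 without con-2c library 1 or con-2c library 3), while RPL26 itself rose from 0.728 ± 0.0983 to 11.2 ± 0.421 CPM. The summed level of the small subunit list went from 2682 ± 131 to 2707 ± 34.4 CPM, and that of the large subunit list went from 1895 ± 74.6 to 2365 ± 67.2 CPM.

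Ribosome assembly factors had 25 of 103 members called higher and 2 lower, with a median of 0.36. EMG1, a methyltransferase of 18S rRNA, had 2.42, 2.73 and 3.29 CPM in the con-2c libraries against 106, 106 and 116 CPM in the con-4c libraries. FBL, the fibrillarin methyltransferase of box C/D particles, rose from 0.853 ± 0.213 to 37.4 ± 1.63 CPM, PNO1, which acts on the small subunit precursor, from 0.166 ± 0.105 to 7.6 ± 2.24 CPM, and IMP3, of the small subunit processome, from 22 ± 2.98 to 85.4 ± 7.51 CPM. UTP23, a processome factor, went the other way with 939.9, 936 and 995 CPM in the con-2c libraries against 327, 341 and 338 CPM in the con-4c libraries. GAR1, of the box H/ACA particles, also fell, from 8.44 ± 1.5 to 3.17 ± 0.612 CPM. Translation factors had 16 of 53 called higher and 1 lower (median 0.24). The cytosolic poly(A)-binding protein PABPC1 rose from 1.18 ± 0.86 to 17.5 ± 2.27 CPM, the release factor ETF1 from 5.53 ± 0.623 to 39.3 ± 1.59 CPM, EIF6, which keeps subunits apart, from 19.7 ± 2.91 to 143 ± 10.1 CPM and the helicase EIF4A1 from 148 ± 17.6 to 342 ± 24 CPM. EIF4E3, a cap-binding protein, fell from 13.8 ± 2.93 to 6.2 ± 0.703 CPM, a call lost without con-2c library 1 (-0.97) and under library totals (-0.87). Aminoacyl-tRNA synthetases had 4 of 37 called higher and 1 lower, shares under the background on both sides. SARS1 rose from 10.4 ± 1.24 to 21.5 ± 0.692 CPM and was not called without con-2c library 3 (0.94). RARS2 fell from 449 ± 79.6 to 222 ± 14.9 CPM and was not called without con-2c library 1, con-2c library 2 or con-4c library 1 (log2 fold change -0.97 to -0.93), with DESeq2 (-0.99) or under library totals (-0.73). QARS1 rose from a low level, from 0.431 ± 0.168 to 1.72 ± 0.23 CPM, and missed the threshold without any one of the control libraries (log2 fold change 1.68 to 2.23).

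Mitochondria showed gain and loss side by side. The list of mitochondrial DNA maintenance, import and transcription had 14 of 39 called higher and 1 lower (median 0.39). TFAM, which packages and transcribes mitochondrial DNA, had 1.34, 1.34 and 1.45 CPM in the con-2c libraries against 133, 144 and 139 CPM in the con-4c libraries. TFB2M, its partner at promoters, rose from 0.62 ± 0.307 to 7.32 ± 1.33 CPM, POLRMT, the mitochondrial RNA polymerase, from 0.51 ± 0.226 to 2.4 ± 0.894 CPM and TWNK, the helicase, from 3.01 ± 1.34 to 12.6 ± 2.71 CPM. The import receptor TOMM20 rose from 5.92 ± 0.929 to 47.9 ± 1.92 CPM and the small chaperone TIMM8A from 0.47 ± 0.237 to 21.4 ± 2.72 CPM. POLG2, the accessory subunit of the mitochondrial DNA polymerase, fell from 38.2 ± 5.68 to 18.3 ± 2.72 CPM, a call lost without con-2c library 2 (-0.94) or con-4c library 1 (-0.97) and under library totals (-0.79). PPARGC1A, a coactivator of mitochondrial genes, rose from 0.759 ± 0.262 to 5.32 ± 0.822 CPM.

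Mitochondrial ribosomal proteins had 12 of 67 called higher and 5 lower, both above the background, around a median of -0.15. Under library totals the median was 0.10, against 0.38 over all tested genes. MRPL50 rose from 14.1 ± 1.67 to 68.6 ± 7.04 CPM and MRPL17 from 3.26 ± 0.669 to 31.6 ± 1.83 CPM, whereas MRPS31 fell from 186 ± 21.4 to 74.2 ± 0.822 CPM. MRPL51 rose from 21.6 ± 3.4 to 45.6 ± 4.81 CPM and was not called without con-2c library 1 (0.95) or con-4c library 3 (0.997). Complex I had 7 of 33 called higher and 0 lower with a median of -0.20. NDUFA2 rose from 6.17 ± 1.42 to 95.8 ± 2.22 CPM and NDUFB11 from 7.22 ± 0.363 to 24.9 ± 0.445 CPM, while NDUFA1 had 408 ± 21.7 in con-2c against 447 ± 13.1 CPM in con-4c and was not called (edgeR adjusted p 0.183). In complexes II to V 4 of 46 were called higher and 4 lower. COX7A2 rose from 43.7 ± 1.42 to 131 ± 6.91 CPM while its relative COX7A2L and another small subunit of complex IV, COX7B (107 to 41.2 CPM), fell. SCO1, a copper chaperone of complex IV, rose from 1.85 ± 1.26 to 16 ± 1.37 CPM.

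Metal handling was led by SLC31A1. Of 31 members 5 were called higher and 1 lower. The zinc transporter SLC39A9 rose from 6.49 ± 0.209 to 42.3 ± 4.33 CPM, and SLC30A1, which exports zinc, fell from 126 ± 35.3 to 40.8 ± 1.26 CPM. Antioxidant genes had 6 of 34 higher and 3 lower, and their median of -0.46 was the lowest of all lists and stayed below 0 under library totals. Of the peroxiredoxins tested, PRDX4, PRDX5 and PRDX6 were called higher and PRDX1, PRDX2 and PRDX3 were not called. PRDX6 rose from 10.6 ± 1.16 to 104 ± 9.25 CPM and PRDX4 from 28.6 ± 3.35 to 65.4 ± 5.11 CPM, while PRDX2, the most abundant in CPM, had 2492 ± 175 in con-2c against 1906 ± 89.7 CPM in con-4c. Catalase (CAT) fell from 120.2 ± 13.5 to 53.4 ± 2.6 CPM, mitochondrial superoxide dismutase SOD2 from 17.5 ± 2.16 to 7.31 ± 0.728 CPM and NFE2L2 as given above. Under library totals CAT was at -0.89 and SOD2 at -0.99.

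In intermediary metabolism the shares called higher were near or under 14.4%. Those of glycolysis and the citrate cycle (15.6%) and of nucleotide synthesis (13.6%) were above the 11.7% of genes with a symbol and a position. Glycolysis and the citrate cycle had 7 of 45 called higher and 2 lower. Hexokinase HK2 rose from 12 ± 1.41 to 41.5 ± 1.89 CPM, fumarase FH from 8.23 ± 1.87 to 22 ± 3.12 CPM and pyruvate kinase PKM from 2.86 ± 1.19 to 9.12 ± 1.0 CPM. MDH1, the cytosolic malate dehydrogenase, fell from 16.9 ± 2.58 to 7.81 ± 1.34 CPM, and PDK4, an inhibitor of pyruvate dehydrogenase, from 1.66 ± 0.712 to 0.516 ± 0.227 CPM. MDH1 was not called without con-2c library 2 (-0.99) or con-4c library 3 (-0.98), nor under library totals (-0.84), and PDK4 was not called without con-2c library 2 (-1.34) or con-4c library 3 (-1.37). Nucleotide and one-carbon synthesis had 6 of 44 higher and 3 lower. Thymidylate synthase TYMS fell from 228 ± 24.3 to 83.5 ± 3.52 CPM and the phosphoserine phosphatase PSPH from 1768 ± 308 to 755 ± 36.1 CPM. Thymidine kinase TK1 rose from 3.02 ± 0.765 to 7.66 ± 0.795 CPM and GART, of purine synthesis, from 2.89 ± 0.697 to 8.95 ± 0.558 CPM. PSPH was at -0.94 under library totals.

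Sterol and fatty acid synthesis had 2 of 30 members higher and 4 lower, the lower share being 13.3% against 3.25%. SREBF2, the transcription factor of sterol genes, fell from 2.91 ± 1.02 to 1.16 ± 0.596 CPM, INSIG1, which restrains it, from 3.03 ± 0.858 to 0.923 ± 0.525 CPM, FADS1, a desaturase, from 4.41 ± 1.54 to 1.44 ± 0.449 CPM, and MSMO1, a sterol demethylating oxidase, from 438 ± 94.4 to 188 ± 9.11 CPM. The sterol carrier STARD4 rose from 1.48 ± 1.39 to 35.5 ± 5.72 CPM, and SC5D, a late enzyme of the pathway, from 1.43 ± 0.211 to 5.91 ± 0.23 CPM. SREBF2 was not called without con-2c library 3 (-1.04) or con-4c library 2 (-1.003). Under library totals both MSMO1 (-0.93, short of the fold threshold) and SREBF2 (-1.07, edgeR adjusted p 0.0555) lost their calls, and the list median of -0.25 became 0.02. The median of all tested genes was 0.38 under library totals, and the list median differed from that of all tested genes by -0.36 under both scalings. Lipid droplet and triglyceride genes had 2 of 29 higher and 2 lower. CPT1A, the gate of fatty acid entry into mitochondria, rose from 0.0297 ± 0.0515 to 4.88 ± 0.505 CPM, and FABP5, a fatty acid carrier, from 4.32 ± 0.254 to 35.8 ± 3.41 CPM. FITM2, which helps droplets form, fell from 3.9 ± 1.01 to 1.58 ± 0.288 CPM and the droplet coat protein PLIN3 from 2.37 ± 0.592 to 0.985 ± 0.17 CPM. Amino acid transporters and growth signalling had 1 of 37 in each direction: SLC7A2 rose from 0.279 ± 0.181 to 1.37 ± 0.557 CPM, a call lost without con-2c library 2, con-2c library 3, con-4c library 1, con-4c library 3 or si-2c library 2 (log2 fold change 1.904 to 2.28), and SLC1A5 fell from 33.6 ± 4.77 to 15.8 ± 1.59 CPM, which was at -0.83 under library totals.

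Maternal programmes were not lost as whole lists. The subcortical maternal complex, which eggs need for the first cleavages, had 1 of 10 members called lower, OOEP, and 0 higher. NLRP9 had 1174 ± 65.7 in con-2c against 1556 ± 40.9 CPM in con-4c (log2 fold change 0.41, below the fold threshold). Zona pellucida, secreted factors and regulators of the oocyte had 2 of 30 lower and 2 higher, with a median of -0.35. ZP4, a zona glycoprotein, had 1191, 1264 and 915 CPM in the con-2c libraries against 491, 557 and 537 CPM in the con-4c libraries, and OOSP2, an oocyte-secreted protein, fell from 1067 ± 193 to 388 ± 28.4 CPM. The members called higher were at about 1 CPM: CD9, the egg surface protein of sperm fusion, rose from 0.041 ± 0.071 to 1.08 ± 0.423 CPM and OAS1, an antiviral enzyme, from 0 counts to 1.03 CPM (mean of con-4c). ZP4 was at -0.81 under library totals, and CD9 was not called without con-2c library 1, con-2c library 2, con-4c library 1, con-4c library 2 or con-4c library 3 (log2 fold change 4.04 to 4.801). BMP15 was at 887 and 985 CPM on average and GDF9 at 602 and 467, neither called. Maternal mRNA storage and translation control had 2 of 28 lower and 1 higher. PABPN1L, a poly(A)-binding protein of eggs, fell from 8.6 ± 2.25 to 3.61 ± 0.949 CPM and the piRNA pathway protein TDRKH from 24.7 ± 2.18 to 11.6 ± 1.64 CPM. PABPN1L was at -0.99 and TDRKH at -0.81 under library totals, and TDRKH was not called without con-4c library 1 (-0.98).

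The cell cycle lists had shares called higher below the background. Mitotic cyclins, CDK1 and regulators had 2 of 20 higher, CKS2 and WEE1, and 0 lower. WEE1, the somatic inhibitor kinase of CDK1, rose from 0.252 ± 0.219 to 2.49 ± 0.0702 CPM, and CKS1B, the sister of CKS2, had 2509.9 ± 176 in con-2c against 1389 ± 94.9 CPM in con-4c and was not called (log2 fold change -0.85). G1/S cyclins and CDK inhibitors had 2 of 29 higher and 0 lower. The D cyclin CCND2 rose from 0.464 ± 0.371 to 3.01 ± 0.669 CPM and the repressor E2F7 from 3.18 ± 0.301 to 11.5 ± 1.45 CPM, and CDKN3 had 306 ± 26.2 in con-2c against 187 ± 17.2 CPM in con-4c, not called. The anaphase-promoting complex and spindle checkpoint had 2 of 36 higher and 3 lower with a median of -0.38. MAD1L1 rose from 0.0927 ± 0.0827 to 8.74 ± 0.904 CPM while its partner at kinetochores, MAD2L1, fell from 768 ± 153 to 379 ± 32.9 CPM. CDC23 rose from 0.375 ± 0.19 to 7.19 ± 1.03 CPM and ANAPC10 fell from 23 ± 1.29 to 9.5 ± 0.975 CPM, both subunits of the same ubiquitin ligase. MAD2L1 was not called without con-2c library 1, con-2c library 2 or con-4c library 1 (log2 fold change -0.97 to -0.94), with DESeq2 (-0.99) or under library totals (-0.74).

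DNA replication had 4 of 52 members higher and 5 lower, and its summed level, most of it PCNA, went from 31737 ± 4686 to 16788 ± 586 CPM. GMNN, the licensing inhibitor geminin, fell from 357 ± 33.6 to 169 ± 7.32 CPM. ORC1, the origin-binding subunit, rose from 31 ± 0.72 to 82.7 ± 3.37 CPM, and RFC5, of the clamp loader, from 14.3 ± 1.9 to 30 ± 2.82 CPM. Repair genes had 4 of 59 higher and 4 lower. CHEK2, a checkpoint kinase, rose from 7.69 ± 0.339 to 44.3 ± 4.17 CPM. XPA, of nucleotide excision repair, fell from 91.5 ± 0.465 to 40 ± 0.749 CPM. RFC5 was not called without con-2c library 3 (0.94). Under library totals GMNN was at -0.80 and XPA at -0.92.

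On the side of chromatin, histone methylation and acetylation enzymes had 11 of 68 members higher and 3 lower (median 0.18). The methyltransferase SETD2 rose from 4.87 ± 0.269 to 36.3 ± 0.70 CPM, like NSD1 an enzyme of H3 lysine 36. The Polycomb subunits EED and SUZ12 rose from 1.35 ± 0.608 to 15.5 ± 2.33 CPM and from 8.24 ± 1.77 to 23 ± 3.01 CPM, and the lysine 4 demethylases KDM5B and KDM5C from 1.67 ± 0.652 to 7.79 ± 1.15 CPM and from 0.75 ± 0.432 to 4.73 ± 0.307 CPM. DPY30, a core subunit of lysine 4 methyltransferases, had 439, 465 and 425 CPM in the con-2c libraries against 172, 179 and 175 CPM in the con-4c libraries. KAT8, the acetyltransferase of H4 lysine 16, fell from 19.4 ± 2.62 to 8.23 ± 0.711 CPM and was at -0.97 under library totals. Remodelling and bromodomain genes had 8 of 45 higher and 1 lower, with the germ line bromodomain protein BRDT rising from 158 ± 15 to 394 ± 9.31 CPM and BRD2 from 13.4 ± 1.35 to 37.2 ± 1.16 CPM. BRD1, a scaffold of acetyltransferases, fell from 6.96 ± 1.42 to 3.03 ± 1.25 CPM (-0.92 under library totals). Histone variants and chaperones had 2 of 26 in each direction. Both H2A.Z genes rose, H2AFZ from 119 ± 10.1 to 343 ± 21.1 CPM and H2AZ2 from 17.2 ± 0.843 to 58.9 ± 5.92 CPM, and the chaperone ASF1B fell from 262 ± 32.9 to 109.9 ± 4.79 CPM (-0.98 under library totals) with H2AX from 3.66 ± 0.861 to 1.6 ± 0.131 CPM (-0.93). DNA methylation genes had 2 of 17 higher, TDG and GADD45B (1.03 to 6.72 CPM), and 0 lower. DNMT1, the maintenance methyltransferase, had 79439, 80948 and 63358 CPM in the con-2c libraries against 46559, 48249.7 and 48919.8 CPM in the con-4c libraries, and although the libraries did not overlap its log2 fold change of -0.64 (SE 0.09) was below the fold threshold.

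Protein quality control split within complexes. Proteasome subunits had 5 of 45 higher and 6 lower. PSMB7, a catalytic subunit, rose from 21 ± 4.78 to 89.8 ± 4.97 CPM, and PSMD6 from 7.62 ± 0.485 to 18.1 ± 3.04 CPM, whereas PSMB1 fell from 241 ± 14.4 to 95.5 ± 7.34 CPM and PSMA4 from 293 ± 15.4 to 143 ± 15.9 CPM. Both activator subunits PSME1 and PSME2, of the immunoproteasome cap, were among the 5 called higher. PSMA4 was not called without con-4c library 1 (-0.95) or under library totals (-0.76). Ubiquitin E2, cullin and deubiquitinase genes were rarely called, with 3 of 79 higher and 2 lower. UCHL3 fell from 338 ± 19.7 to 142 ± 16.5 CPM (-0.98 under library totals) and CUL2, a cullin, rose from 5.14 ± 0.481 to 11 ± 1.45 CPM. USP3 rose from 12.3 ± 0.729 to 26.3 ± 3.65 CPM and UBE2V2 fell from 975 ± 141 to 476 ± 31.4 CPM, calls near the fold threshold that were lost without con-4c library 1 (0.998) for USP3, and without con-2c library 1, con-2c library 2 or con-4c library 1 (log2 fold change -0.997 to -0.97) or under library totals (-0.76) for UBE2V2. Cytosolic chaperones had 6 of 52 higher and 4 lower. HSPA8, the constitutive HSP70, rose from 104 ± 5.79 to 231 ± 11.7 CPM and the HSP90 cochaperone PTGES3 from 14.9 ± 1.79 to 68.3 ± 3.55 CPM, and DNAJC2 fell from 156 ± 2.88 to 60.8 ± 3.69 CPM and DNAJB4 from 148 ± 9.22 to 71 ± 2.88 CPM (-0.78 under library totals).

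Several stress and death genes rose. The unfolded protein response list had 6 of 27 higher and 0 lower. ATF4, the central factor of the integrated stress response, rose from 8.04 ± 1.66 to 19.5 ± 2.26 CPM, its target DDIT3 from 56.8 ± 2.84 to 143 ± 6.98 CPM, the pseudokinase TRIB3 from 0.288 ± 0.181 to 3.24 ± 0.452 CPM and the sensor kinase EIF2AK3 from 0.11 ± 0.105 to 2.37 ± 0.277 CPM. HSP90B1, a chaperone of the endoplasmic reticulum, had 304 ± 15.8 in con-2c against 311 ± 5.97 CPM in con-4c and was not called (edgeR adjusted p 0.749). Apoptosis genes had 7 of 25 higher and 2 lower. The pro-survival MCL1 rose from 1.46 ± 0.717 to 16.7 ± 2.04 CPM, and so did the pro-apoptotic PMAIP1 (1.57 to 12.1 CPM), BID (0.233 to 4.77 CPM) and BAD (0.199 to 3.02 CPM). DIABLO, released from mitochondria in apoptosis, rose from 2.51 ± 0.879 to 16.1 ± 1.2 CPM. The caspase CASP6 fell from 9.77 ± 1.81 to 4.3 ± 1.65 CPM, not called without con-4c library 1 (-0.90) or under library totals (-0.91). Interferon and innate sensing genes had 3 of 20 higher and 0 lower, OAS1 and TLR3 (0.041 to 8.02 CPM) among them. ISG15 rose from 0.571 ± 0.169 to 1.97 ± 0.457 CPM and was not called without con-2c library 1 (1.56) or con-4c library 1 (1.63).

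In the cytoskeleton and nuclear envelope most members were not called. Actin regulators had 6 of 48 higher and 0 lower. The tropomyosin TPM3 rose from 0.617 ± 0.408 to 75.5 ± 3.09 CPM, TMSB10 as given above, and RHOA, the GTPase of contractility, from 32.8 ± 2.84 to 70.6 ± 2.19 CPM. DSTN, an actin-severing protein, had 3007 ± 277 in con-2c against 1718 ± 56.6 CPM in con-4c, not called (log2 fold change -0.81). Tubulins, kinesins and spindle proteins had 4 of 42 higher and 3 lower. The tubulin TUBB rose from 21.7 ± 3.53 to 60.7 ± 3.98 CPM and the dynein subunit DYNC1LI1 from 1.86 ± 0.614 to 8.7 ± 1.4 CPM, while PRC1, which bundles midzone microtubules, fell from 836 ± 47.6 to 374 ± 14.8 CPM (-0.89 under library totals). Nuclear pore and transport genes had 5 of 56 higher and 2 lower. The mRNA export receptor NXF1 rose from 4.75 ± 0.871 to 29 ± 0.51 CPM and importin KPNB1 from 8.47 ± 1.4 to 23.7 ± 2.28 CPM, and pore subunits NUP37 and NUP43 fell, from 362 ± 61.6 to 141 ± 11.8 CPM and from 79 ± 15.3 to 36.5 ± 1.71 CPM. NUP43 was not called without con-2c library 1 (-0.99) or under library totals (-0.83).

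TGF-beta, WNT, FGF and Notch genes had 7 of 59 higher and 2 lower. The WNT kinase GSK3B rose from 10.9 ± 1.69 to 24.5 ± 1.61 CPM and the coreceptor LRP6 from 26.1 ± 5.39 to 54.7 ± 3.13 CPM. The receptor kinases TGFBR1 and ACVR1 fell, from 7.55 ± 1.81 to 3.43 ± 0.0974 CPM and from 4.71 ± 1.46 to 2.3 ± 0.758 CPM. LRP6 was not called without con-2c library 2 (0.91), TGFBR1 without con-2c library 3 (-0.99) and ACVR1 without con-2c library 3 (-0.78) or con-4c library 2 (-0.81), and under library totals TGFBR1 was at -0.88 and ACVR1 at -0.78. Adhesion and junction genes had 6 of 40 higher and 1 lower. Occludin (OCLN) rose from 14.6 ± 1.79 to 30.7 ± 3.34 CPM, not called without con-2c library 3 (0.95) or con-4c library 2 (0.97). ITGA1, an integrin, rose from 0.259 ± 0.132 to 1.62 ± 0.684 CPM, and CLDN10, a claudin, fell from 42.1 ± 3.04 to 18.8 ± 1.91 CPM (-0.90 under library totals). Trafficking, endosome and lysosome genes had 5 of 65 higher and 7 lower, with a median of -0.21. Under library totals the median was 0.06, against 0.38 over all tested genes. RAB5A, of early endosomes, rose from 4.92 ± 0.69 to 21.1 ± 0.82 CPM and SEC61G, of the translocon, from 5.83 ± 0.751 to 28.6 ± 3.96 CPM. VPS37A, of the ESCRT-I complex, fell from 192 ± 25.4 to 80.9 ± 2.98 CPM (-0.97 under library totals), the cholesterol exporter NPC1 from 33.8 ± 5.01 to 12.4 ± 2.39 CPM and cathepsin CTSB from 10.9 ± 1.41 to 4.8 ± 1.17 CPM (-0.91 under library totals).

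Counting members and adding up their levels gave different pictures. The list sum was above its con-2c value for elongation factors (1.58 times the con-2c sum), remodelling genes (1.27) and the exosome and decapping list (1.21). It was below it for early embryo factors (0.774), splicing factors (0.923) and mitochondrial maintenance and import genes (0.908), although each list had more members called higher than lower. Sums mix genes of different transcript length, and 1 abundant gene can make up most of a sum.

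**Figure D5:**
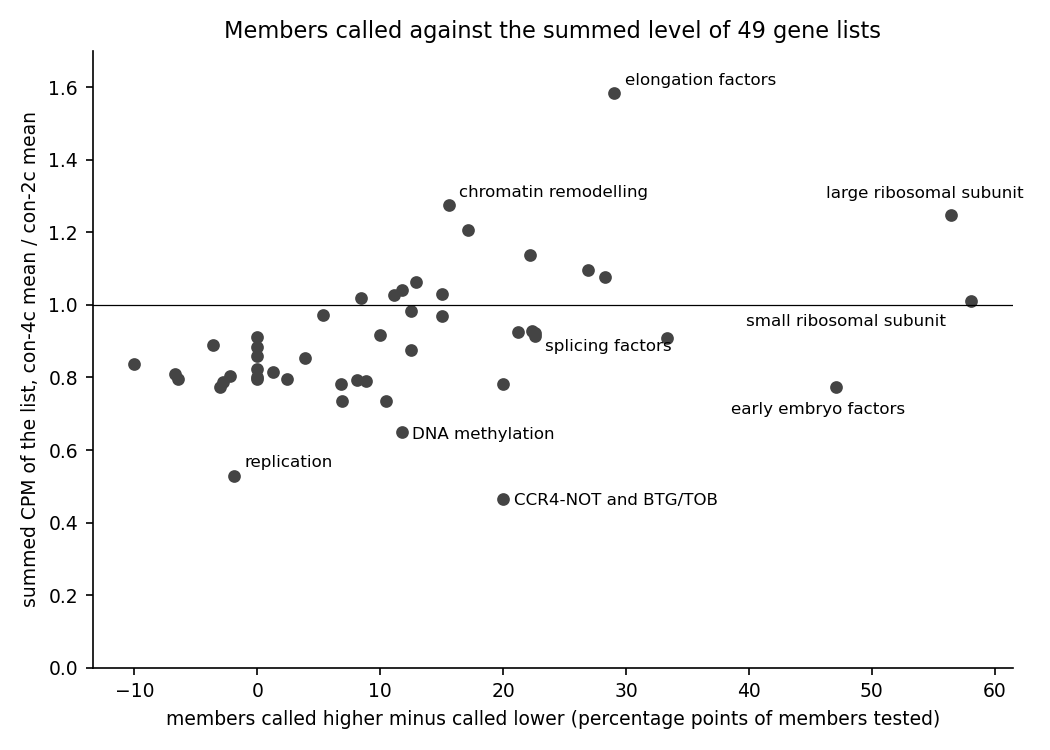
Summed CPM of each of 49 gene lists in con-4c divided by that in con-2c (vertical axis, means of 3 libraries; 1 is no change) against the percentage of members called higher minus the percentage called lower (horizontal axis). Lists with an excess of members called higher have sums from about 0.5 to 1.6 times the con-2c value, with elongation factors highest (1.58) and the CCR4-NOT and BTG/TOB list lowest (0.466).

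Genes without a symbol were a large part of the gain. Of the genes called higher 1176 had no symbol, and 54.7% had one, against 67.5% of all tested genes and 72.4% of the genes called lower. The genes without a symbol that were called higher took 0.118%, 0.129% and 0.129% of the counts in con-2c and 1.84%, 1.83% and 1.84% in con-4c. The 2 with the smallest p were ENSSSCG00000060073, with 2.29, 2.23 and 2.28 CPM in con-2c and 624, 617 and 613 CPM in con-4c, and ENSSSCG00000046061, with 4.07, 4.10 and 3.47 CPM in con-2c and 347, 319.8 and 325 CPM in con-4c. Both had no overlap between the groups. Those called lower were led by ENSSSCG00000004623 (590.8 ± 62.6 to 179 ± 4.46 CPM) and ENSSSCG00000007749 (844 ± 48.4 to 358 ± 9.90 CPM).

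Positions in RefSeq for build Sscrofa11.1, matched by symbol, were found for 11293 of 12151 tested genes with a symbol, among which 11.7% were called higher and 3.41% lower. The calls were found on every chromosome. The share called higher lay between 8.55% on chromosome 9 and 14.4% on chromosome 5, and the share called lower between 2.07% on chromosome 18 and 5.53% on chromosome 8. The median length of the gene from start to end was 19084 bases for genes called higher, 23158 for genes called lower and 33166 for all tested genes, as a description. Of the genes gained, TFAM lies on chromosome 14, 92261713 to 92279731, EMG1 on chromosome 5, 63746326 to 63751469, TDG on chromosome 5, 80473233 to 80492295, SUPT4H1 on chromosome 12, 34622775 to 34629681 and NSD1 on chromosome 2, 80649882 to 80810934. Of those lost, RGS2 lies on chromosome 10, 936836 to 940083, OOEP on chromosome 1, 53006898 to 53007877, SRPX on chromosome X, 34075577 to 34198462, BTG4 on chromosome 9, 39253116 to 39281327 and PCNA on chromosome 17, 14137746 to 14142584. The counts are per gene, so no value can be given to a part of it.

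Markers of cells that can accompany eggs were at low levels apart from VCAN and SERPINE2. Of 16 listed cumulus and granulosa genes in the table, 11 were tested, 3 were called higher and 0 lower. The genes called were VIM (0.0594 to 2.71 CPM), COL3A1 (0 to 1.69 CPM) and COL1A1 (0.109 to 1.6 CPM, not called without con-4c library 3 (3.52)). HAS2, CYP11A1 and FOXL2 were at most 0.132 CPM in any control library. Other listed genes were higher: CYP19A1 had 0.605 to 0.802 CPM in con-2c, and TNFAIP6, STAR and PTGS2 reached 1.16, 1.23 and 1.46 CPM in their highest control library. The summed level of the list went from between 327 and 405 CPM in con-2c to between 211 and 223 CPM in con-4c, most of it VCAN. Of 11 white blood cell genes in the table, 3 of 8 tested were called higher, all under 2 CPM in every library. The part of such cells in the gain of low-level genes was not tested.

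The same contrast between titles was last compared with that of the si-CCNB2 libraries by an interaction test, (si-4c minus si-2c) minus (con-4c minus con-2c), in the same model. It gave 1777 genes (9.87% of those tested) with a positive and 4050 (22.5%) with a negative call. Among the genes gained in con-4c 2539 (97.7%) had an interaction called lower and 0 an interaction called higher (edgeR, 0 also at an unadjusted p under 0.05 and by DESeq2). Among the genes lost 530 (90.8%) had an interaction called higher and 0 lower (edgeR, 0 also at an unadjusted p under 0.05 and by DESeq2). The control difference enters the interaction with a minus sign, so these shares are in part fixed by the choice of genes. The si libraries entered the choice of genes only through the low-count filter, the TMM scaling and the estimate of spread. They held 3.35% ± 0.0136 of their counts in the genes gained for si-2c and 0.870% ± 0.0113 for si-4c (SD, n = 3). The genes lost took 10.7% ± 0.332 in si-2c and 18.2% ± 0.323 in si-4c. By the share in genes lost, the libraries titled si-2c were nearer con-4c (9.35%) than con-2c (18.6%). By the share in genes gained they lay between con-2c (0.845%) and con-4c (5.60%), only slightly nearer con-4c. The libraries titled si-4c were nearer con-2c by both shares. The tissue label of the si libraries also names the opposite stage, and their titles are followed here too.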

How the data were processed

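SMART-seq was applied to pooled porcine embryos of 4 groups with 3 libraries each. The authors deposited raw counts per Ensembl gene (29329 genes, 15463 with a symbol). The submitters' processing notes name cutadapt 1.9, HISAT2 2.2.1, StringTie 2.1.6, DESeq2, edgeR and the build Sscrofa11.1, without giving their roles. How reads shared between genes were counted is not given in the sources used here, and the cDNA protocol does not mark strand, so copies, overlapping and antisense genes are uncertain. Symbols came from the table, with 128 added from a reference name table, which held 14637 of the identifiers. 42 symbols belong to more than 1 identifier.

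Counts were fitted in R 4.3.3 with edgeR 4.0.16: filterByExpr, TMM, quasi-likelihood, 4 group means over all 12 libraries, Benjamini-Hochberg adjustment over all genes tested. Standard errors were derived from the fold change and its F statistic. DESeq2 1.42.0 was an alternative. The common dispersion was 0.0745. The analysis was checked on simulated counts. The counts of replicate pairs exceeded sampling noise (chi-square over its degrees of freedom, 7.27 to 30.5), so none was a copy. Same-numbered libraries did not deviate together (Pearson's r 0.00202, 0.00852 and 0.000668). Reads have no molecular identifiers, so floors cover counting error only.

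Members and lists were chosen with earlier results of these data known. Named genes were the 12 higher and 12 lower with the smallest p, the 6 with the largest gain and loss in CPM, up to 2 per list and direction (the member of highest CPM where none was called), 4 study genes, and the 6 of highest CPM among those under 3 counts in every library of a group. Other list members given by name were chosen after their values were seen. Promoter sequences were not analysed here, and some genes that the rule names are not reported here.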

Additional observations from a re-analysis of the deposited data

Results flagged for a closer look

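The change between titles differed between control and si-CCNB2 libraries by a test of the difference itself, the interaction term of the edgeR model. It called 1777 genes higher and 4050 lower. Among genes called higher in con-4c, 2539 had an interaction called lower, and among genes called lower in con-4c, 530 had an interaction called higher. All 12 named genes higher with the smallest p had an interaction called lower, and all 12 named genes lower had one called higher. These genes were chosen by the control difference, which is part of the interaction. Groups of 3 libraries were too small for a check of single outlying libraries.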

How the results depend on the processing

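The number called higher and the number called lower stayed within 1.5 times of 2598 and 584 with DESeq2, DESeq2 size factors, no low-count filter, the 6 control libraries alone and with any library left out, and so did the 5827 interaction calls where they could be computed. Under library totals 228 genes were called lower. A filter of at least 10 CPM in 3 libraries gave 682 higher, 248 lower and 2044 interaction calls among fewer tested genes. An adjusted p below 0.01 with a log2 fold change of at least 2 gave 1365 higher, 22 lower and 2781 interaction calls, and no minimum fold change gave 2716 lower. A replicate block, fitted although the libraries share only a number, called 2357 higher, 579 lower and 5585 interaction genes, and changed the calls of CD9, QARS1 and SLC7A2 among the named genes. Of 246 named genes called, 189 stayed called, and none reversed, under every other tool, scaling, low-count filter, block and left-out library in which they were tested. The 10 CPM filter and the 6 control libraries alone left some of them untested, and other call thresholds were not applied to single genes. The cause of lost calls was not tested. Of 19 list medians below 0, 16 were above 0 under library totals, where the median of all tested genes was 0.38. Depth limits genes under about 1 CPM.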

Other observations

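Families of genes that share the start of their symbol, chosen after the values were seen, differed in how often they were called. Of 236 tested genes with a ZNF symbol, mostly zinc finger proteins, 29 (12.3%) were called higher and 5 lower, near the shares of all tested genes. Among genes with a symbol and a position the shares were 11.7% and 3.41%. Of 247 solute carriers (SLC), 25 (10.1%) were called higher and 17 (6.88%) lower, the highest share called lower among the 14 families of at least 40 tested genes. RAB genes, small GTPases of membrane traffic, had 7 of 60 (11.7%) called higher, like genes with a symbol and a position, and 0 lower. RNF genes, ring finger proteins, had 2 of 58 called higher and 0 lower, the lowest share called higher among these families. Counts here come from edgeR, and the differences between families were not tested.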
